A study of Mus musculus with 47 samples.

Results

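The 9 genes described here act in homologous recombination, in the Fanconi pathway of crosslink repair and in the replication checkpoint beside them: Brca1, Brca2, Rad51ap1, Rad54b, Rad54l, Fancd2, Fanca, Blm and Chek1. A probe set was taken as a member where the platform's gene symbol was exactly 1 of these names, and each gene was read from its brightest probe set, out of 26 probe sets for the 9 genes and 18194 genes measured. All cells were mouse B cell lymphomas carrying the Eµ-myc transgene, which drives Myc in the B lineage, and a retroviral Bcl2, which blocks apoptosis. The 47 arrays came from 22 cultures. Suv39h1ER cultures were Suv39h1- lymphomas given a Suv39h1 that is fused to an oestrogen receptor domain and switched on by 4-hydroxytamoxifen (4OHT), an added gene rather than the native one, and were measured after adriamycin with 4OHT (Suv39h1ER ADR 4OHT, n = 3), after adriamycin alone (Suv39h1ER ADR, n = 3) and untreated (Suv39h1ER native, n = 3). Suv39h1- lymphomas, which lack this H3K9 methyltransferase, were measured after adriamycin (n = 5) and untreated (n = 5), and so were WT lymphomas (n = 14 and 14). Adriamycin (ADR) was given at 0.05 µg/ml for 5 days. The labels call the WT ADR and Suv39h1ER ADR 4OHT cells senescent. Lymphoma number 4936 occurs among the Suv39h1- and the Suv39h1ER cultures, and 5043 among the WT and the Suv39h1ER cultures.

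Homologous recombination repairs a broken chromosome by copying the intact sister, and so works mainly in cells that are replicating or have replicated their DNA. Brca1 promotes the trimming of the broken ends, Brca2 prepares the trimmed ends for strand exchange, and Rad51ap1, Rad54l and Rad54b help in the exchange with the sister. Blm is a helicase that takes apart the joint molecules. In the Fanconi pathway a core complex that includes Fanca attaches ubiquitin to Fancd2 at crosslinked DNA, and Chek1 is the kinase through which ATR restrains the cell cycle when forks stall. Adriamycin traps topoisomerase II on DNA and thereby breaks it. The messages of most of these genes are known to be made in cycling cells, under E2F and related promoter factors.

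Promoter windows of 4 of the genes are shown because the messages changed together and because cell cycle promoters are known for a few short motifs. The windows are from RefSeq on GRCm38.p6, run from 250 bases before to 50 bases after the start of each gene, and are written on the gene's own strand. Capitals mark matches on either strand to TTTCCCGC or TTTGGCGC (E2F forms), TTTGAA (the CHR element) or CCAAT, none of which overlap each other.
Brca1, chr11:101551906-101552205, minus strand: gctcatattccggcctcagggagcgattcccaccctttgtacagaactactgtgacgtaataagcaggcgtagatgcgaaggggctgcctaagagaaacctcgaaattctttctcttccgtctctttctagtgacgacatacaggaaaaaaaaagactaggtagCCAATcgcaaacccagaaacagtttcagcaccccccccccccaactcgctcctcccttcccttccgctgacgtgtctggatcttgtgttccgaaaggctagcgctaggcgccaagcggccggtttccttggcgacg
Brca2, chr5:150522371-150522670, plus strand: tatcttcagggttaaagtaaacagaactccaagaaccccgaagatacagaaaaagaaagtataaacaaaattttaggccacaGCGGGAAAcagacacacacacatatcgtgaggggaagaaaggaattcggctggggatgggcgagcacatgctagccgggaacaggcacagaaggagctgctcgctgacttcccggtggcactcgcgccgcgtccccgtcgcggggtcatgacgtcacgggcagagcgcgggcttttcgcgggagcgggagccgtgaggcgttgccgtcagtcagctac
Blm, chr7:80534949-80535248, minus strand: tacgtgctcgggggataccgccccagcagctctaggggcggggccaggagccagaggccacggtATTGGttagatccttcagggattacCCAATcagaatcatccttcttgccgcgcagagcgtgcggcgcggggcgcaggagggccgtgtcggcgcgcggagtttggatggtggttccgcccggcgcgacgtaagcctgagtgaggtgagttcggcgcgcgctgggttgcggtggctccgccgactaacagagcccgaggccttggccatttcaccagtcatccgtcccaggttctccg
Chek1, chr9:36726609-36726908, minus strand: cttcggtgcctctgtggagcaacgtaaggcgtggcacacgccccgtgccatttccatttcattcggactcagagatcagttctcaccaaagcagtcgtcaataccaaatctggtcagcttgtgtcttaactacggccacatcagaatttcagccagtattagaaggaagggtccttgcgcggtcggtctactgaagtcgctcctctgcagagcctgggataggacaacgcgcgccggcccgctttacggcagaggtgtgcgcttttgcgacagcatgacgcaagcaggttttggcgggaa
The Brca2 window holds TTTCCCGC on the opposite strand, first base at position -168 from the start. The Brca1 window holds 1 CCAAT, the Blm window holds 2, and the Chek1 window holds none of these exact strings. Near its end the Chek1 window reads tttggcgg, which departs from TTTGGCGC only in the last base and was not counted. RefSeq windows were read for 7 of the 9 members (Rad54b and Fancd2 are only named). Of these 7, 5 held a CCAAT, against 37.9% of 27025 mouse promoters, 1 held TTTCCCGC (1.11% of promoters), and none held TTTGGCGC (0.537%) or TTTGAA (18.1%). A match is a string of letters in this window and was not tested for binding. Only these exact strings were searched, so a window without a match may still hold another form of the same element.

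In WT lymphomas all 9 genes fell after adriamycin (limma, Benjamini-Hochberg adjusted p under 0.05). Over all 18194 genes, 30.2% were called in this comparison and 14.1% were called lower. The median difference of the 9 genes was -1.58 on the log2 scale, a level 0.33 times that of native cells, against -0.00 over all genes. Levels below are RMA log2 values, which compare arrays for 1 gene but do not rank genes against each other.

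**Figure D1:**
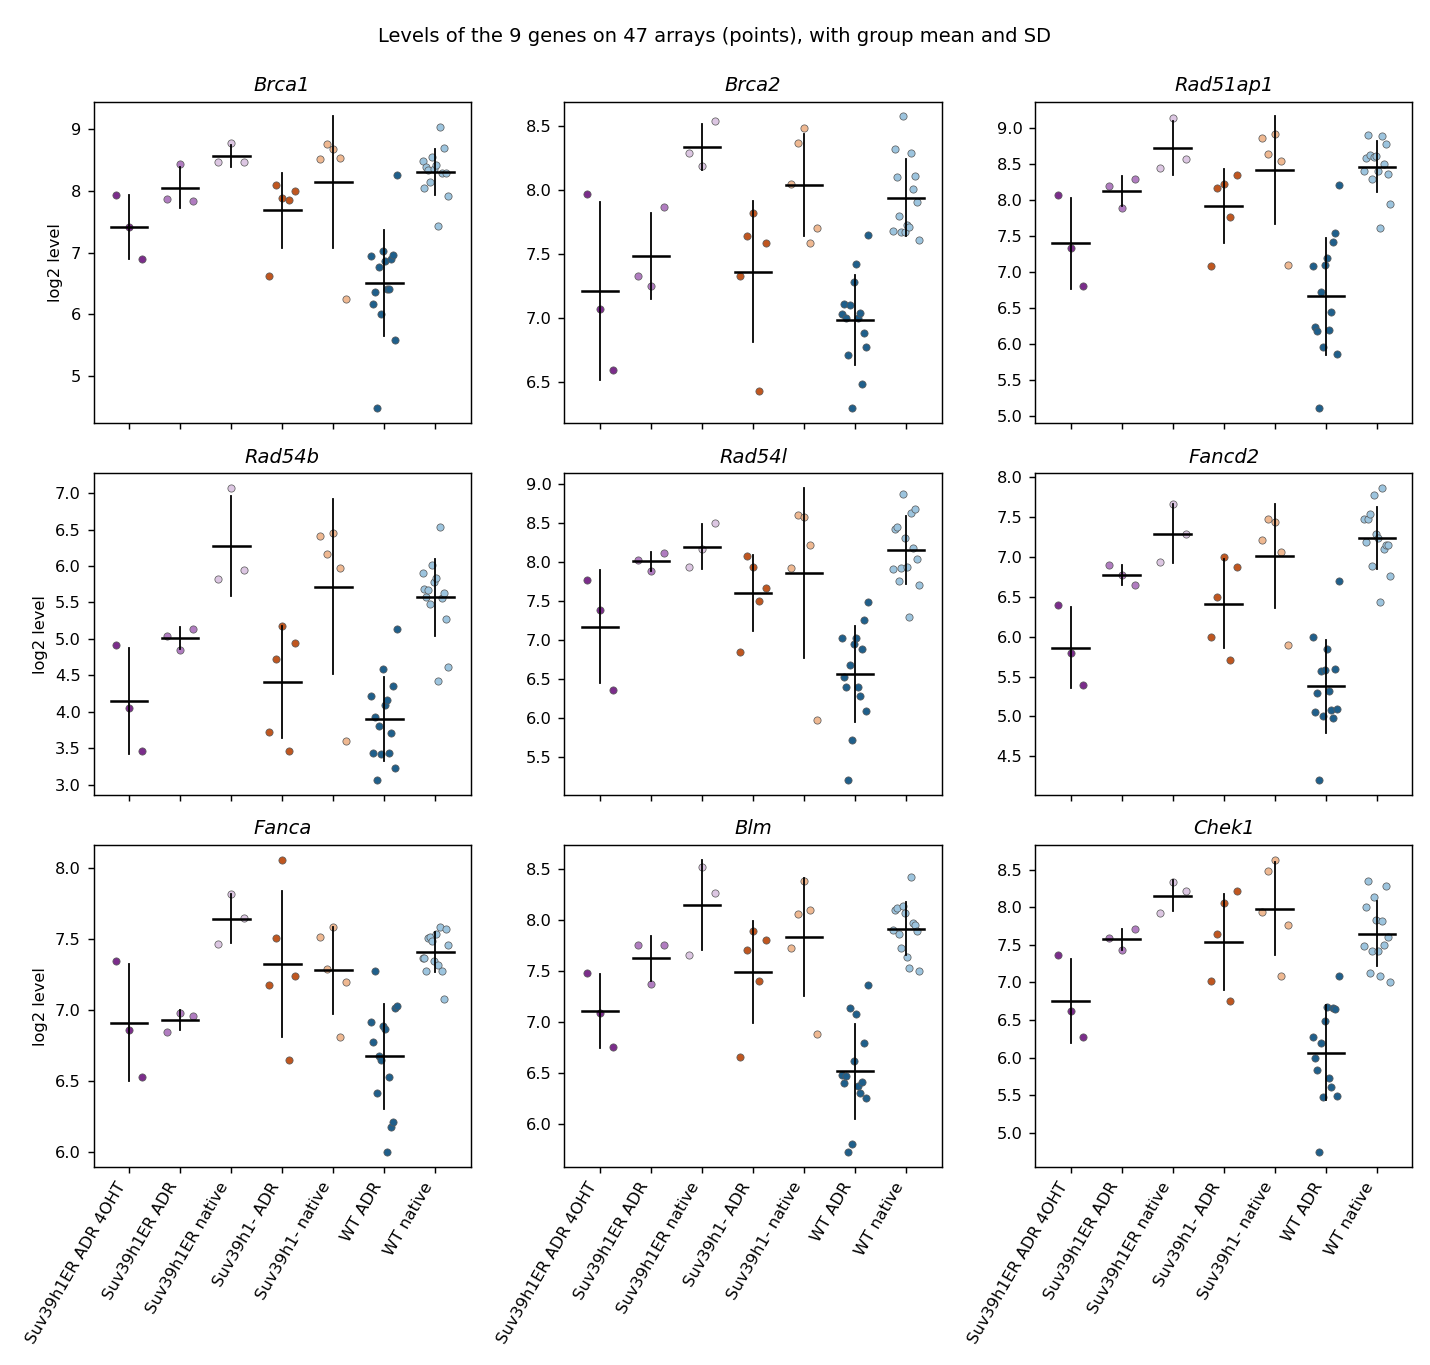
Log2 level of each of the 9 genes (a panel per gene) on the 47 arrays, by genotype and treatment group. Points are arrays and the bars give the group mean and SD. WT ADR has the lowest mean and Suv39h1ER native the highest in all 9 panels.

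Of the strand exchange genes, Brca1 had log2 levels of 4.48 to 8.26 (median 6.60) in WT ADR lymphomas, against 7.43 to 9.04 (median 8.35) in WT native lymphomas. Its level was lower after adriamycin in 13 of 14 lymphomas, by -1.80 (SE 0.25, 95% interval -2.31 to -1.29, adjusted p = 4.49e-06). Brca2 had 6.29 to 7.65 (median 7.02) in WT ADR against 7.61 to 8.58 (median 7.85) in WT native lymphomas, and the groups met only through lymphoma 9584, whose ADR level of 7.65 lay above its own native level of 7.61. Its difference of -0.96 (SE 0.15, adjusted p = 2.04e-05) left 0.515 times the native level.

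Rad51ap1, an accessory factor of strand exchange, had 5.10 to 8.21 (median 6.59) in WT ADR lymphomas and 7.61 to 8.91 (median 8.55) in WT native lymphomas. The fitted difference was -1.81 (SE 0.24, adjusted p = 2.50e-06), and 13 of 14 lymphomas were lower. The 2 DNA translocases of strand exchange also fell. Rad54l had 5.20 to 7.49 (median 6.60) in WT ADR and 7.29 to 8.87 (median 8.11) in WT native lymphomas, lower in all 14, with a difference of -1.58 (SE 0.21, adjusted p = 4.03e-06). Rad54b had 3.06 to 5.14 (median 3.87) in WT ADR and 4.43 to 6.53 (median 5.65) in WT native lymphomas, with a difference of -1.67 (SE 0.27, adjusted p = 3.93e-05), lower in 13 of 14.

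The 2 Fanconi genes stood at opposite ends of the range. Fancd2, the protein that the pathway modifies, had 4.20 to 6.70 (median 5.31) in WT ADR lymphomas, against 6.43 to 7.86 (median 7.21) in WT native lymphomas. It was lower in all 14 lymphomas and had the deepest fall of the 9 genes, -1.86 (SE 0.20, 95% interval -2.27 to -1.44, adjusted p = 2.97e-07), to 0.276 times the native level. Fanca, a subunit of the core complex, had 6.0 to 7.28 (median 6.73) in WT ADR and 7.08 to 7.59 (median 7.42) in WT native lymphomas. Its difference of -0.73 (SE 0.09, adjusted p = 2.08e-06), 0.601 times the native level, was the smallest of the 9, and lymphoma 2581 did not move (0.00). With arrays centred on the B cell list, Fanca stood at -0.32 (adjusted p = 0.0661).

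Blm had 5.72 to 7.36 (median 6.44) in WT ADR lymphomas and 7.50 to 8.42 (median 7.92) in WT native lymphomas, so every treated lymphoma lay below every untreated one. Blm was the 1 member of the 9 whose WT groups did not overlap, which held downward for 0.561% of all genes. The difference was -1.40 (SE 0.17, adjusted p = 7.75e-07), lower in 14 of 14. Chek1 had 4.74 to 7.09 (median 6.10) in WT ADR and 7.01 to 8.35 (median 7.56) in WT native lymphomas, with a difference of -1.58 (SE 0.18, adjusted p = 4.05e-07), lower in 13 of 14.

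Among all 18194 genes ordered by the size of their fall in WT lymphomas, Fancd2 stood at rank 50, Rad51ap1 at 58, Brca1 at 59, Rad54b at 86, Chek1 at 110, Rad54l at 113, Blm at 174, Brca2 at 400 and Fanca at 651. The other probe sets were a check on the choice of the brightest. Of all 26 member probe sets, 24 were called lower and all 26 had a difference below 0, against 14.1% called lower of the 34958 probe sets with 1 gene symbol. The 2 that did not pass were the dimmest for Brca1, at -0.17 (adjusted p = 0.12), and the dimmest for Chek1, at -0.01 (adjusted p = 0.949). Blm, Brca2 and Rad54b had 1 probe set each.

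**Figure D2:**
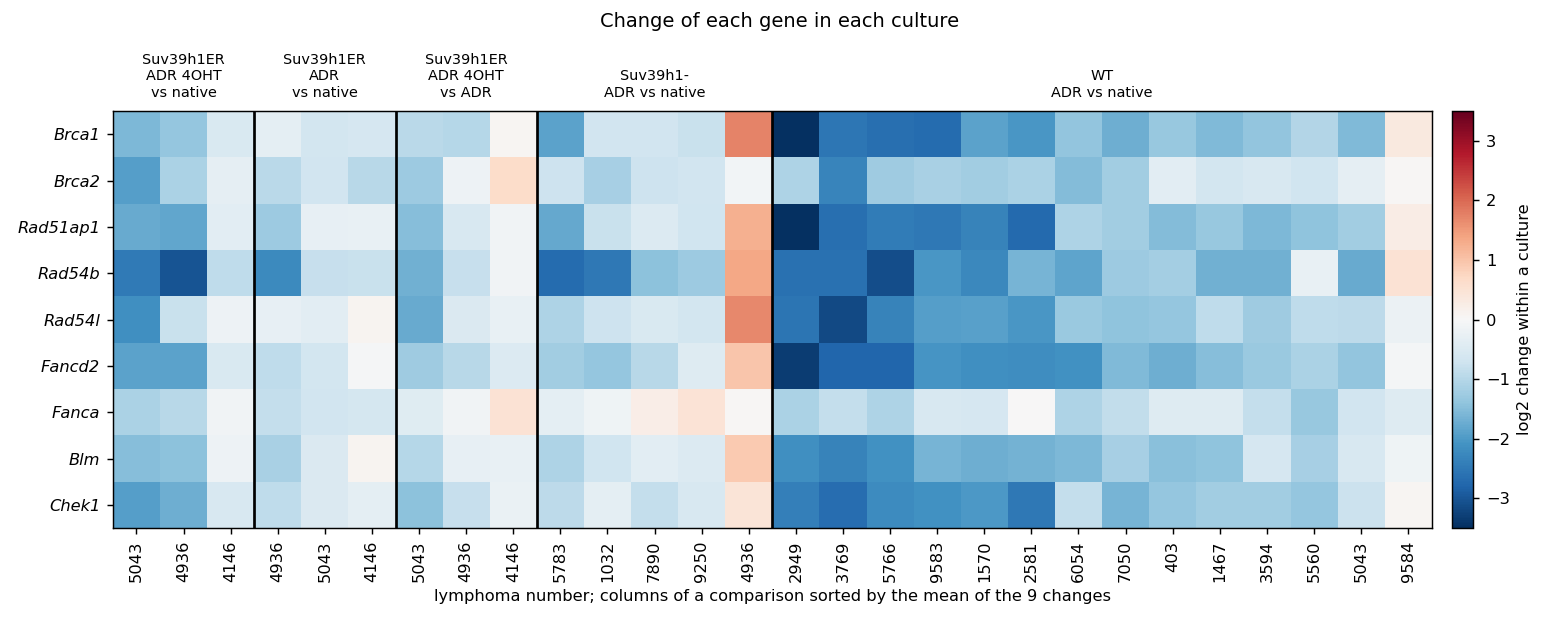
Log2 change of each of the 9 genes (rows) in each culture (columns), treated minus untreated or ADR 4OHT minus ADR, in blocks by comparison. Blue is lower and red is higher. WT lymphoma 9584 and Suv39h1- lymphoma 4936 stand at the end of their blocks with mean changes of 0.04 and 0.92.

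The 14 WT lymphomas differed in how far the genes moved, and the genes moved together within a lymphoma. The mean change of the 9 genes was -2.51 in lymphoma 2949, -2.43 in 3769 and -2.21 in 5766, lay between -1.85 and -1.01 in 10 others, and was 0.04 in 9584. In lymphoma 2949, Brca1 changed by -3.87, Rad51ap1 by -3.53 and Fancd2 by -3.33, whereas Brca2 changed by -1.09 and Fanca by -1.10. In lymphoma 9584, Rad54b changed by 0.51 and Brca1 by 0.34, whereas Fanca changed by -0.44. Lymphoma 9584 had the highest ADR level of 8 of the 9 genes, all but Fanca. Its native levels were low among WT lymphomas for some genes, and were the lowest of the 14 for Brca2 (7.61), Blm (7.50) and Chek1 (7.01).

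Markers of other cells and of the cell cycle moved in the same lymphomas. A list of 17 measured genes of cycling cells fell in WT lymphomas with all 17 called, a median of -1.77, and its mean change was -3.23 in lymphoma 2949, the lymphoma with the largest fall of the 9 genes, and -0.20 in 9584. Fibroblast markers, which the irradiated NIH 3T3 feeder cells carry, were called higher for 16 of 18 genes, with a median of 2.28. Their mean change by lymphoma ran between -0.10 (1467) and 4.64 (403), and their mean level was 4.64 to 9.40 in WT ADR against 3.95 to 5.24 in WT native lymphomas. Macrophage markers were called higher for 9 of 12 genes, and B cell markers were called lower for 5 of 11, with a mean change of -0.41. In bulk samples fewer cells of a type and less RNA per cell cannot be told apart.

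The 9 genes were also read beside the fibroblast list. In lymphoma 1467, where the fibroblast list changed by -0.10, the 9 genes changed by -1.18 on average, and in 2949, at 0.56, by -2.51. In 5043, at 0.45, the 9 genes changed by -1.01, in 1570, at 0.76, by -1.78, and in 9584, at 0.89, by 0.04. At the largest fibroblast changes they changed by -1.19 in 403 (4.64) and by -1.03 in 5560 (4.47). The macrophage list changed by 2.28 in 1467. With the fibroblast change of each WT lymphoma as a covariate, all 9 genes were called lower at a fibroblast change of 0, with a median of -1.45. The slope of the genes on the fibroblast change passed the limma test for 0 of 9 (17.8% of all genes were called). None of the 9 had an unadjusted p under 0.05 (5305 of all genes had), with fitted slopes from -0.11 for Chek1 to 0.11 for Rad54b. With arrays centred on the B cell list the slope passed for 6 of 9, beside 15363 of all genes. The part of the cycling, macrophage and B cell lists in the result was not tested.

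**Figure D3:**
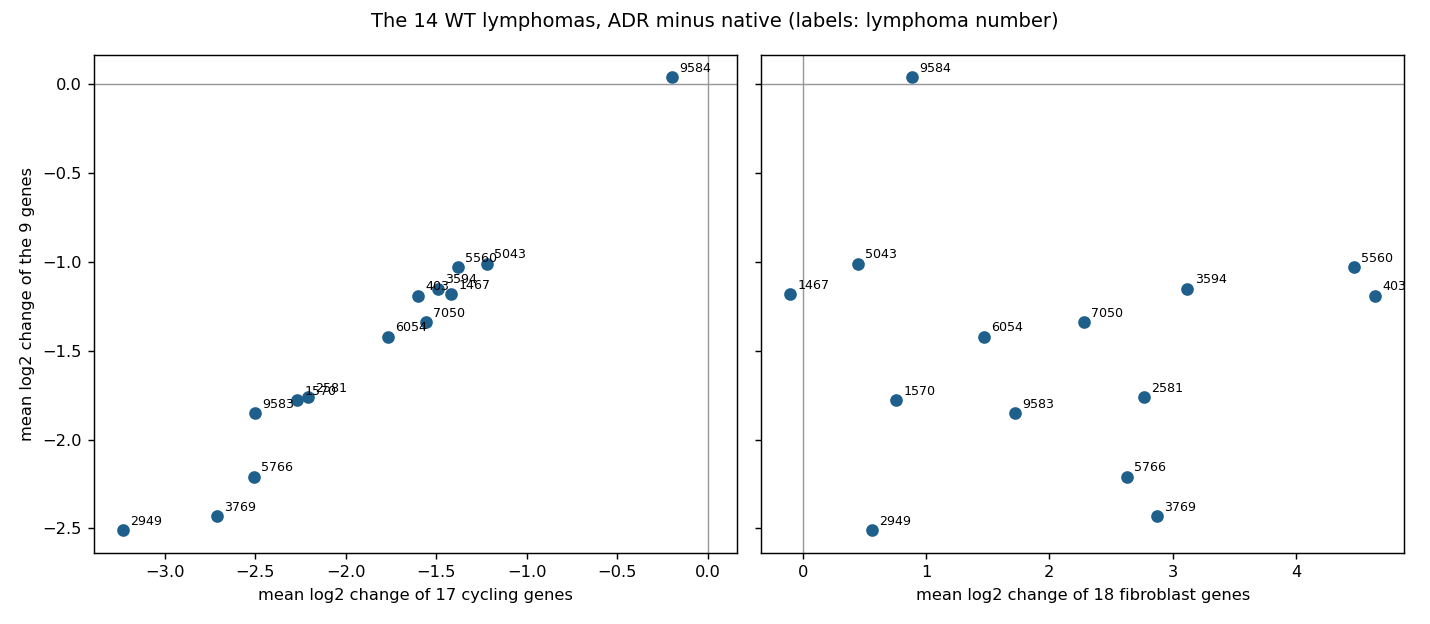
Mean log2 change of the 9 genes in each of the 14 WT lymphomas (y axis, ADR minus native) against the mean change of the marker lists on the x axes, with lymphoma numbers beside the points. Lymphoma 2949 is lowest for the 9 genes and for the cycling list (-2.51 and -3.23), and 9584 is highest for both (0.04 and -0.20).

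Other repair genes in WT lymphomas are given from lists by pathway. Of 29 other homologous recombination genes measured, 23 were called lower and none higher, with a median of -0.68, against 14.1% called lower over all genes. The largest called falls were those of Fignl1, an ATPase of the recombination pathway (-1.83, adjusted p = 5.94e-07), Mnd1, a partner in strand exchange (-1.74, adjusted p = 1.98e-07), and Exo1, a nuclease that trims broken ends (-1.71, adjusted p = 1.21e-06). Of 19 other Fanconi genes, 13 were called lower and 2 higher, with a median of -0.48. Ube2t, the ubiquitin-conjugating enzyme of the pathway, fell by 1.64 on the log2 scale, Fancb by 1.19 and Fanci, the partner of Fancd2, by 1.05. The 2 that rose, Ercc1 (0.42) and Ercc4 (0.30), form the nuclease that also works in nucleotide excision repair. With the probe set of largest variance in place of the brightest, Ercc4 stood at -0.30 and Ercc1 did not pass.

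The checkpoint list followed the same direction. Of 17 other genes of the ATR checkpoint and of RPA, 15 were called lower, with a median of -0.85, among them Cdc25c (-1.58), the phosphatase that Chek1 restrains, Clspn (-1.54), the adaptor through which ATR reaches Chek1, and Tipin (-1.43), a fork protection factor. Of 11 genes of ATM and break signalling, 8 were called lower, with a median of -0.36, led by H2ax (-1.65), the histone marked at breaks, with Rif1 at -0.88 and Chek2 at -0.68. Of 12 end joining genes, 6 were called lower and 1 higher, with a median of -0.26. Xrcc6, a subunit of the Ku end-binding dimer, stood at -1.0, Parp1 at -0.85, Lig4 at -0.58 and the riser Xrcc4 at 0.34. Of 12 nucleotide excision repair genes, 3 were called lower and 2 higher, with a median of -0.00. Ddb2, which recognises ultraviolet damage, stood at -1.18, Gtf2h4 at -0.65, Ercc8 at -0.60, Xpc at 0.26 and Ercc3 at 0.23. The calls of Xpc and Ercc3 were lost without any of several lymphomas (1467, 1570 and 2949 for both), and that of Lig4 likewise (without 2581 or 5766 among others, -0.47 and -0.48). The medians are descriptions of the lists, and no difference between lists was tested.

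**Figure D4:**
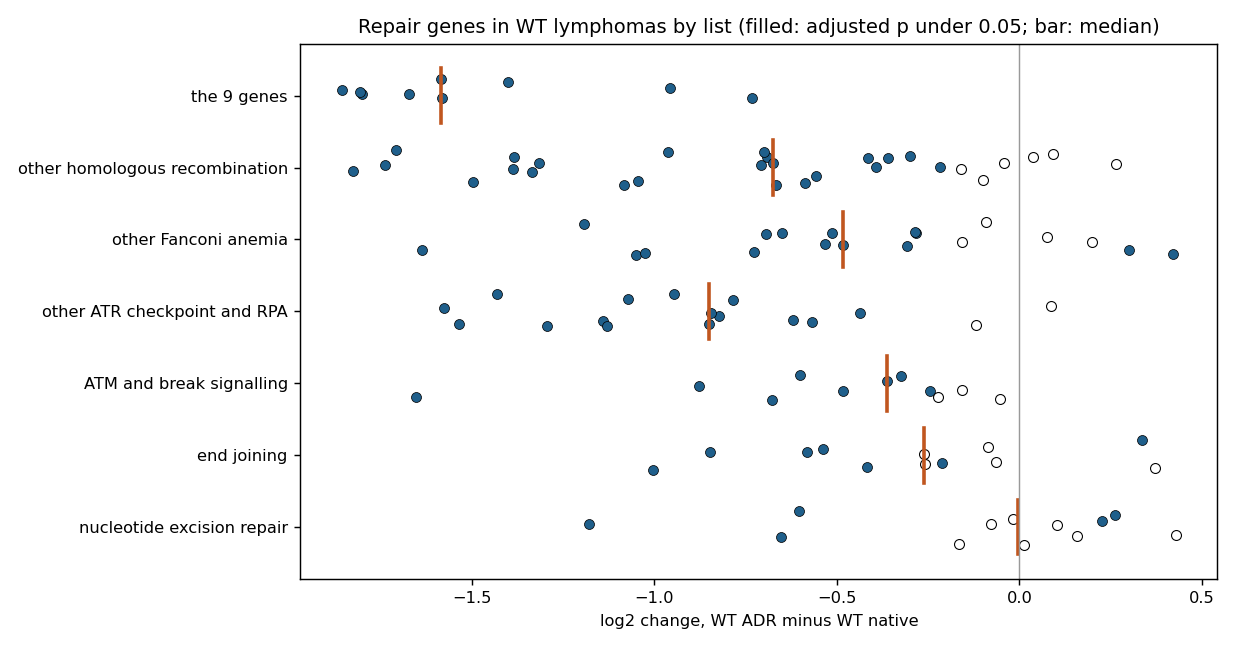
Log2 change (WT ADR minus WT native) of each gene on the x axis, for the 9 genes and 6 other repair lists down the page. Filled points passed the adjusted p threshold and the bar is the list median, which is -1.58 for the 9 genes, -0.85 for the ATR and RPA list and -0.00 for nucleotide excision repair.

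In Suv39h1- lymphomas none of the 9 genes passed the test after adriamycin. Over all genes 0.0110% (2 genes) were called by limma, and 1885 had an unadjusted p under 0.05, among them Rad54b and Brca2. The fitted differences were below 0 for 8 of the 9 genes, with a median of -0.45. Lymphomas are given below in the order 5783, 7890, 9250, 1032 and 4936.

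Brca1 had log2 levels of 6.62, 8.10, 7.88, 7.85 and 7.99 in Suv39h1- ADR lymphomas, against 8.51, 8.76, 8.67, 8.53 and 6.25 in Suv39h1- native lymphomas. In the first 4 lymphomas Brca1 was lower after treatment, and in 4936, whose native level lay well under the other 4, it was higher. The fitted difference was -0.45 (SE 0.41, 95% interval -1.30 to 0.40, adjusted p = 0.751). Rad54l had 6.84, 8.07, 7.94, 7.50 and 7.66 in Suv39h1- ADR and 7.92, 8.60, 8.57, 8.22 and 5.97 in Suv39h1- native lymphomas, with the same split of 4 against 1 and a fitted difference of -0.25 (95% interval -0.99 to 0.49).

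Rad54b had 3.73, 4.73, 5.18, 3.47 and 4.95 in Suv39h1- ADR lymphomas, against 6.41, 6.16, 6.45, 5.97 and 3.60 in Suv39h1- native lymphomas. Its fitted difference of -1.31 (SE 0.46, 95% interval -2.25 to -0.36, adjusted p = 0.294) was the largest of the 9 in these lymphomas. Rad54b was a dim probe set, with a mean level of 4.88 where array medians ran from 4.07 to 4.43. It lay under 4.07 on some arrays here, in WT ADR (median 3.87) and in Suv39h1ER ADR 4OHT (lowest 3.47). Whether low signal limited its changes was not tested. Brca2 was lower in each lymphoma, with 7.33, 7.64, 7.82, 6.43 and 7.59 in Suv39h1- ADR and 8.05, 8.37, 8.49, 7.59 and 7.70 in Suv39h1- native lymphomas (difference -0.68, adjusted p = 0.311). Fanca had 7.18, 7.51, 8.06, 6.65 and 7.24 in Suv39h1- ADR and 7.52, 7.29, 7.59, 6.81 and 7.20 in Suv39h1- native lymphomas, with 2 of 5 lower and a difference of 0.05 (95% interval -0.28 to 0.37). Fancd2 (-0.60), Rad51ap1 (-0.50), Chek1 (-0.44) and Blm (-0.34) had intervals that included 0, and treated and untreated lymphomas overlapped for all 9 genes (0.517% of all genes did not overlap downward).

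The mean change of the 9 genes was -1.30 in Suv39h1- lymphoma 5783, -0.93 in 1032, -0.64 in 7890, -0.56 in 9250 and 0.92 in 4936, and the cycling list changed by 0.79 in 4936. The fibroblast list changed by 0.26 on average in these lymphomas, between -0.15 and 0.70. The treated array of 1032 had the lowest array median of the series, 4.07 against 4.32 to 4.43 on the others.

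The difference between the responses was tested directly, and 0 of the 9 genes passed in limma (0.341% of all genes were called). An unadjusted p under 0.05 was reached by 7 of the 9, and by 3424 of all 18194 genes. All 9 estimates were above 0, a smaller fall in Suv39h1- than in WT lymphomas. The difference of responses, Suv39h1- minus WT, was 1.35 for Brca1 (95% interval 0.36 to 2.34, adjusted p = 0.143), 1.33 for Rad54l (adjusted p = 0.11), 1.30 for Rad51ap1 (adjusted p = 0.141) and 1.26 for Fancd2 (adjusted p = 0.11). It was 1.14 for Chek1, 1.06 for Blm and 0.78 for Fanca (95% interval 0.40 to 1.16, adjusted p = 0.0515), the nearest of the 9 to the threshold. Rad54b (0.37, 95% interval -0.73 to 1.47) and Brca2 (0.28, 95% interval -0.32 to 0.88) had intervals that included 0. Without WT lymphoma 9584, 3 genes passed: Fanca (0.81), Fancd2 (1.39) and Chek1 (1.27). Without Suv39h1- lymphoma 5783 or WT lymphoma 1467, 2581 or 2949, Fanca passed. Other settings weakened the result. Over all settings the estimates ran from 0.80 to 1.71 for Brca1, 0.65 to 1.24 for Blm and 0.37 to 0.88 for Fanca. The 62 calls over all genes became 0 without Suv39h1- lymphoma 4936 or 1032, with alike lymphomas counted once and with array weights. They also became 0 without WT lymphoma 7050 and 1 without Suv39h1- lymphoma 9250, and rose to 258 without WT lymphoma 2949. Lymphoma 4936 was the one Suv39h1- lymphoma in which the mean of the 9 genes rose.

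**Figure D5:**
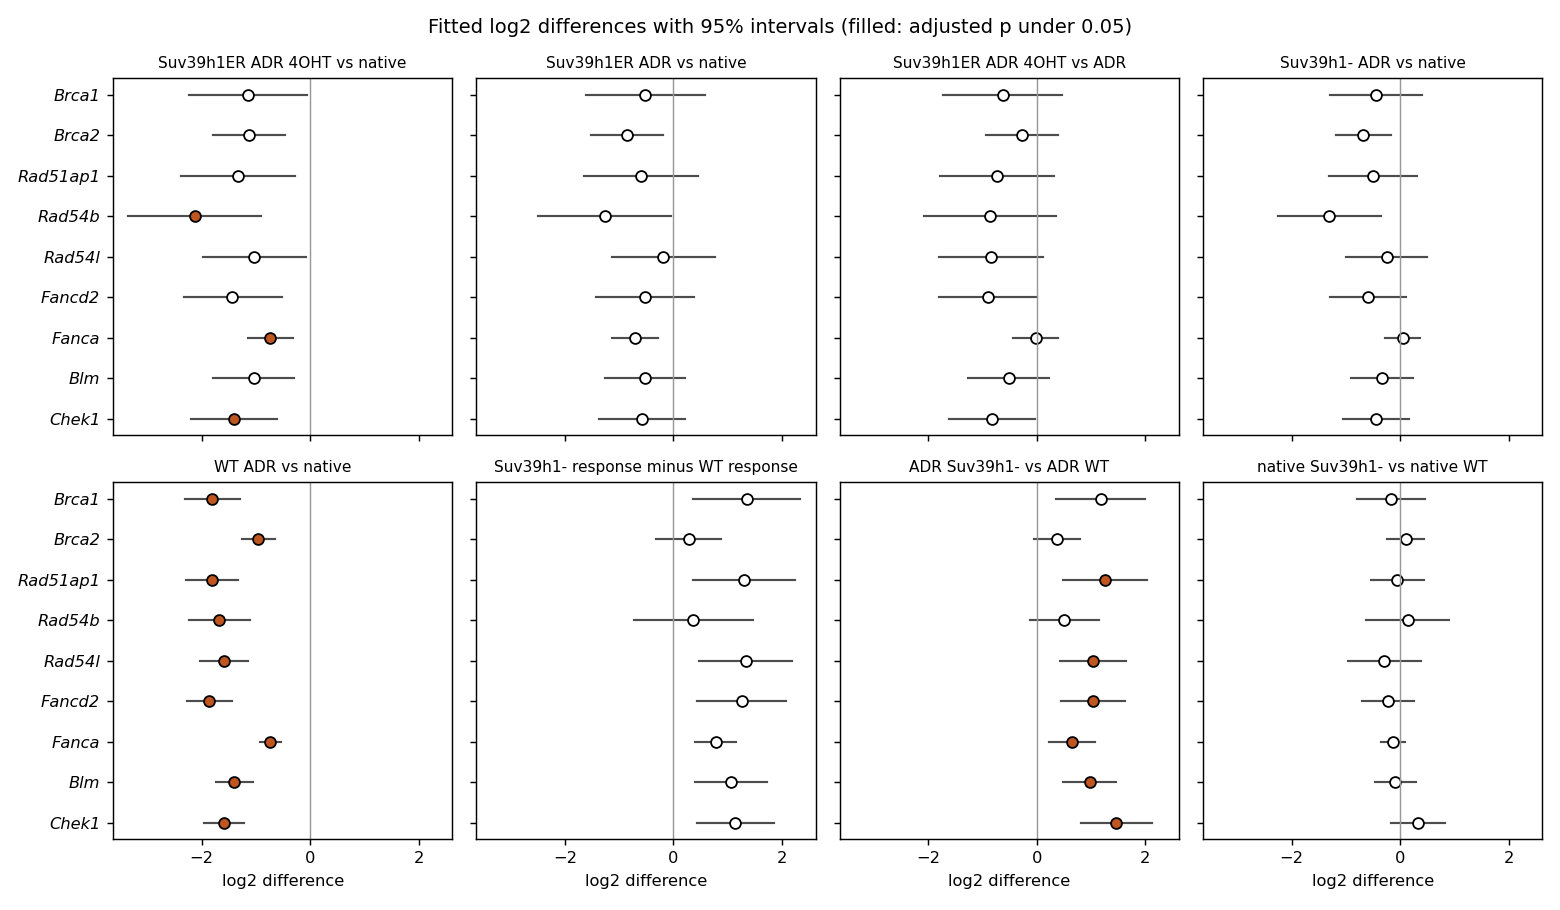
Fitted log2 difference of each of the 9 genes (rows) with its 95% interval (x axis), in a panel for each comparison. Filled points passed the adjusted p threshold: 9 of 9 in WT ADR vs native, 6 of 9 in ADR Suv39h1- vs ADR WT, 3 of 9 in Suv39h1ER ADR 4OHT vs native, and 0 in the others shown.

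After adriamycin, 6 of the 9 genes were higher in Suv39h1- than in WT lymphomas, and none was lower (6.30% of all genes were called higher). Chek1 averaged 7.54 ± 0.64 in Suv39h1- ADR (SD, n = 5) and 6.06 ± 0.63 in WT ADR lymphomas (SD, n = 14), a difference of 1.47 (SE 0.31, adjusted p = 0.006). Blm averaged 7.49 ± 0.50 in Suv39h1- ADR and 6.51 ± 0.47 in WT ADR lymphomas, a difference of 0.98 (adjusted p = 0.0126). The others that passed were Rad51ap1 (1.25, adjusted p = 0.0324), Fancd2 (1.04, adjusted p = 0.0234), Rad54l (1.04, adjusted p = 0.0257) and Fanca (0.65, adjusted p = 0.0403).

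Brca1 (1.18, adjusted p = 0.0542), Rad54b (0.51, adjusted p = 0.274) and Brca2 (0.38, adjusted p = 0.223) did not pass. The treated groups overlapped for all 9 genes (0.566% of all genes did not overlap upward). Of the 26 member probe sets, 13 were called higher and none lower, where 4131 of all 34958 probe sets were called in either direction. Of the 17 that were not the brightest, 7 were called higher, all of Chek1, Rad51ap1 or Rad54l. The dimmer Fanca probe set stood at -0.00 (adjusted p = 0.999). The dimmer Fancd2 probe sets stood at 0.72 (adjusted p = 0.123), -0.22 and -0.09, and none was called. Without Suv39h1- lymphoma 4936, 7890 or 9250, 2 of the 9 genes passed, Chek1 and Blm. With alike lymphomas counted once 1 of 9 passed (Chek1), and with arrays centred on the B cell list 0 of 9 passed. In untreated cells 0 of the 9 genes passed between Suv39h1- and WT lymphomas (1.09% of all genes were called). By the brightest probe sets, none of the 9 had an unadjusted p under 0.05 (1735 of all genes had), with differences from -0.29 for Rad54l to 0.33 for Chek1. Over all 26 member probe sets 0 were called in limma, and differences ran from -0.80 to 0.45. The lowest were 2 dimmer Brca1 probe sets, at -0.80 (adjusted p = 0.117) and -0.67 (adjusted p = 0.256). The fibroblast list averaged 5.03 in Suv39h1- ADR and 6.59 in WT ADR lymphomas, and the macrophage list 6.74 and 8.13, in the same order. The cycling list was called higher for 12 of 17 genes, with a median of 1.25. The log2 difference between the 3′ and 5′ control probe sets of Actb, a sign of RNA quality, averaged 0.87 in Suv39h1- ADR and 0.56 in WT ADR lymphomas. The part of these measures in the 6 calls was not tested. The comparison of treated lymphomas and the difference of responses share their ADR arrays.

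Among other repair genes in the same comparison of treated lymphomas (6.30% of all genes called higher), 11 of 29 homologous recombination genes were called higher and none lower. Of the Fanconi list, 5 of 19 were called higher and 1 lower, and of the ATR and RPA list 9 of 17 were called higher.

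In the Suv39h1ER cultures, where Suv39h1 activity is set by 4OHT, 3 of the 9 genes fell in ADR 4OHT compared with native cells (1.57% of all genes were called lower). Cultures are given in the order SuvER-4146, SuvER-4936 and SuvER-5043. Chek1 had log2 levels of 7.36, 6.62 and 6.27 in Suv39h1ER ADR 4OHT, 7.59, 7.43 and 7.71 in Suv39h1ER ADR and 7.93, 8.33 and 8.21 in Suv39h1ER native cultures. Every ADR 4OHT culture lay below every ADR culture, and every ADR culture below every native one. Chek1 fell by 1.41 on the log2 scale in ADR 4OHT against native cultures (SE 0.38, adjusted p = 0.0459).

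Rad54b had 4.92, 4.05 and 3.47 in Suv39h1ER ADR 4OHT, 5.04, 4.85 and 5.14 in Suv39h1ER ADR and 5.82, 7.07 and 5.95 in Suv39h1ER native cultures. It had the deepest fall in ADR 4OHT against native cultures, -2.13 (SE 0.59, 95% interval -3.35 to -0.91, adjusted p = 0.0484). Fanca had 7.35, 6.86 and 6.53 in Suv39h1ER ADR 4OHT, 6.85, 6.98 and 6.96 in Suv39h1ER ADR and 7.47, 7.82 and 7.65 in Suv39h1ER native cultures. Fanca was about as low with adriamycin alone as with 4OHT added, and its difference between ADR 4OHT and native cultures was -0.73 (SE 0.20, adjusted p = 0.0499).

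The other 6 had ADR 4OHT against native differences of -1.43 for Fancd2 (adjusted p = 0.0784), -1.33 for Rad51ap1 (adjusted p = 0.169), -1.14 for Brca1 (adjusted p = 0.281), -1.13 for Brca2 (adjusted p = 0.056), -1.04 for Blm (adjusted p = 0.116) and -1.03 for Rad54l (adjusted p = 0.262). The ADR 4OHT and native cultures did not overlap for any of the 9 genes, which held downward for 11.9% of all genes. The cycling list changed by -1.26 on average in this comparison and 3 of its 17 genes were called lower, the macrophage list changed by 1.29 and the fibroblast list by 0.37. The Actb 3′ to 5′ difference averaged 0.90 in Suv39h1ER ADR 4OHT, 0.62 in Suv39h1ER ADR and 1.11 in Suv39h1ER native cultures. The part of these measures was not tested. The 3 calls were lost without culture SuvER-4936, without SuvER-5043, with arrays centred on the B cell list and with the probe set of largest variance (0 of 9 in each).

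With adriamycin alone, 0 of the 9 genes passed in limma against native cultures (0.126% of all genes were called). An unadjusted p under 0.05 was reached by 3 of the 9, and by 2240 of all 18194 genes. Differences ran from -1.27 for Rad54b to -0.19 for Rad54l. Levels did not overlap for 7 of the 9, all but Rad54l and Blm, against 9.23% of all genes downward. The macrophage list changed by 1.67, the fibroblast list by 1.18 and the cycling list by -0.44 on average, and their part was not tested. ADR 4OHT against ADR cultures, which differ by 4OHT in the labels, likewise gave 0 of 9 (0.143% of all genes). Here 2 of the 9 had an unadjusted p under 0.05, as had 2268 of all 18194 genes. Fancd2 had 6.40, 5.79 and 5.40 in Suv39h1ER ADR 4OHT against 6.90, 6.77 and 6.64 in Suv39h1ER ADR cultures, and at -0.90 (95% interval -1.81 to -0.00, adjusted p = 0.4) had the largest estimate. Rad54l had 7.77, 7.38 and 6.36 in Suv39h1ER ADR 4OHT against 8.03, 7.88 and 8.12 in Suv39h1ER ADR cultures. Fancd2, Rad54l and Chek1 did not overlap between these groups (11.7% of all genes downward).

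The 3 Suv39h1ER cultures differed in this step. The mean change of the 9 genes, ADR 4OHT minus ADR, was -0.03 in culture SuvER-4146, -0.58 in SuvER-4936 and -1.25 in SuvER-5043. In culture SuvER-4146 Brca2 had 7.97 in Suv39h1ER ADR 4OHT against 7.33 in Suv39h1ER ADR cells, whereas in culture SuvER-5043 it had 6.59 against 7.87. The cycling list changed by -0.82 and the fibroblast list by -0.81 on average between ADR 4OHT and ADR cultures, and their part in the changes was not tested. The labels used here hold no 4OHT group without adriamycin.

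Set in order of the group means, the 9 genes gave nearly the same sequence. WT ADR was lowest and Suv39h1ER native highest for all 9, and Suv39h1ER ADR 4OHT was second lowest for all 9. Brca1, for example, averaged 6.51 ± 0.85 in WT ADR (n = 14), 7.42 ± 0.52 in Suv39h1ER ADR 4OHT (n = 3), 7.69 ± 0.61 in Suv39h1- ADR (n = 5), 8.05 ± 0.34 in Suv39h1ER ADR (n = 3), 8.14 ± 1.06 in Suv39h1- native (n = 5), 8.31 ± 0.37 in WT native (n = 14) and 8.57 ± 0.18 in Suv39h1ER native cells (n = 3, all SD). The ranges of neighbours in this order overlapped in all 6 pairs for each of the 9 genes. Overlap was read from the lowest and highest arrays of each group, so an extreme array is enough to give it. It does not compare a step with the SD, and no share of all genes is given beside it. Whether a step exceeded the spread was not tested by this order.

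The genes varied together across arrays. Over the 47 arrays, which share groups and cultures, Pearson's r between members ran from 0.63 (Rad54l with Fanca) to 0.97 (Brca1 with Rad51ap1), with a median of 0.88 over 36 pairs. With group means removed the median was 0.72, and the range was 0.20 to 0.91. Over the 14 WT changes the median was 0.81, with Fanca and Chek1 at 0.02 and Rad51ap1 and Chek1 at 0.93. Over the 14 native WT levels Fanca and Chek1 were at -0.40. Fanca was in the lowest pair each time.

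Outside the repair lists, the genes with the pattern most like the 9 over 47 arrays were Mki67, Aurkb, Top2a, Prim1, Atad5, Cdca3, Ncapd2 and Cdca8, with mean r of 0.89 to 0.90. Mki67 is the Ki-67 proliferation antigen, Aurkb a mitotic kinase, Top2a the isoform of topoisomerase II made in cycling cells and Prim1 a primase subunit. With group means removed, 5 of these 8 (Atad5, Prim1, Mki67, Aurkb and Top2a) were again among the 8 closest, with Haus5, Cdc45 and Shcbp1, at mean r of 0.74 to 0.77. In WT lymphomas Mki67 changed by -2.31, Aurkb by -2.52 and Top2a by -2.0 on the log2 scale, further than each of the 9 genes. Of context genes in WT lymphomas, Lmnb1 (lamin B1) changed by -1.62, Pcna by -0.72 and Cdkn1a (p21) by 1.11.

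Series-wide checks were as follows. The B cell list averaged 8.77 to 9.38 over the 7 groups, while T cell, NK cell and neutrophil lists averaged 3.59 to 4.75. Single B cell markers differed in level. Cd79b was lowest at 9.60 and Cd79a at 5.93, whereas Pax5 had group medians of only 4.91 to 5.27. Ms4a1 went down to 4.09 in Suv39h1- ADR and Fcrla to 3.36 in WT ADR lymphomas. Fixed-block pairs deviated together (r over 0.1) in 10 of 14 WT lymphomas and in 5 of 5 Suv39h1- lymphomas. WT lymphomas 2949, 5043, 5766 and 6054 resembled each other over 200 probe sets (median r 0.69, range 0.37 to 0.82). Suv39h1- 7890 and 9250 did so less (0.32 to 0.45). Other lymphomas had a median of -0.11 and a range of -0.74 to 0.71, which includes the values of 7890 and 9250. The 200 probe sets were chosen in these same arrays for large variation between lymphomas relative to that within a lymphoma. Suv39h1ER culture SuvER-4936 and Suv39h1- lymphoma 4936 had a median r of 0.08 on the same measure, and SuvER-5043 and WT lymphoma 5043 had 0.05. The 3′ to 5′ difference of Gapdh reached 0.91 on the WT ADR array of lymphoma 1570, against a median of 0.11 in WT ADR, and without 1570 all 9 genes passed in WT lymphomas. Where alike lymphomas were counted once, 9 of 9 genes still passed in WT lymphomas. The level of Suv39h1 was not analysed here, and the labels do not say whether the numbered lymphomas came from separate animals. Between genotypes, p-values measure the spread between numbered cultures. Where treatments were compared, p-values measure how far changes differed between numbered cultures. The residual variance of each gene was then shared over the genotypes, so an SE need not follow a group's own spread. Brca1 changes, ADR against native, had an SD of 1.33 in Suv39h1- lymphomas (SE 0.41) and 0.16 in Suv39h1ER cultures (SE 0.53).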

How the data were processed

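The arrays were Affymetrix mouse expression arrays, hybridised with labelled RNA of lymphoma cultures, and the deposited values are on a log2 scale. The submitters' processing notes name RMA, oligo and R 3.5.0. RMA is meant to set all arrays on 1 distribution, so a shift of all messages would largely not show. The array medians of the deposited values were still not equal, at 4.07 for the treated Suv39h1- array of 1032 and up to 4.43 on the others. The 45101 probe sets were named from the platform annotation: 34958 carried 1 gene symbol, 932 several and 9211 were unnamed here. The brightest probe set over the 47 arrays stood for each of 18194 genes. Differences were fitted with limma 3.58.1 (R 4.3.3) over all genes, with the culture as a fixed block where treatments were compared and without it between genotypes, and adjusted by Benjamini-Hochberg within each of 9 comparisons, two-sided, at 0.05. The pairing comes from the labels' lymphoma numbers. Where treatments were compared, the residual variance of each gene was shared over WT, Suv39h1- and Suv39h1ER cultures, of which WT were the most numerous. The scripts were tested on simulated data. Members and lists were chosen with earlier results of these data known. The text names all 9 members, up to 3 called genes per pathway list and direction with the largest WT change, the 8 genes most alike by mean correlation by each of 2 measures, and 4 context genes (Mki67, Cdkn1a, Pcna, Lmnb1). The alternatives tried are given in the closing section. Batches were not given in the labels used here.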

Additional observations from a re-analysis of the deposited data

Results flagged for a closer look

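Each of the 9 genes was checked for a lymphoma apart from the other 4 within the Suv39h1- groups. Treated levels, native levels and changes made 27 groups of 5. Chance flags about 1 in 20 groups where groups are independent. These groups share the same arrays and genes that varied together, so the count cannot be set against that rate. There were 7 such values, 6 of them from lymphoma 4936. In Suv39h1- native cells, 4936 lay below the other lymphomas for Brca1 (6.25), Rad51ap1 (7.10), Rad54b (3.60), Rad54l (5.97) and Fancd2 (5.89), by more than Dixon's 95% critical value allows. Its Rad54l change, ADR minus native, of 1.69 lay above the other changes. In Suv39h1- ADR cells, the Brca1 level of 6.62 in lymphoma 5783 lay below the others. None of the 9 genes met the test for a difference between the responses of Suv39h1- and WT lymphomas.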

How the results depend on the processing

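In WT ADR against native lymphomas 8 or 9 genes passed under every alternative tried, 9 without any 1 lymphoma. The count was 8 with arrays centred on the B cell list (without Fanca) and 8 of 8 among genes of a mean level of at least 5 (Rad54b was left out). With no replicate block, 9 passed in WT and 0 in Suv39h1- lymphomas, 0 in the difference of responses, and 2 (Rad54b and Brca2) instead of 3 in Suv39h1ER ADR 4OHT against native cultures. In the Suv39h1ER cultures the numbers share little: 1 of 3 pairs or fewer in each comparison had r over 0.1.

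In ADR Suv39h1- against ADR WT lymphomas (6 genes), 1 passed with alike lymphomas counted once, 0 with arrays centred on the B cell list, and 2 to 7 without 1 lymphoma. In Suv39h1ER ADR 4OHT against native cultures (3 genes), 1 passed with alike lymphomas counted once, 5 with array weights, and 0 with the B cell centring, with the probe set of largest variance and, counting the brightest probe sets, with every probe set tested (2 dimmer ones, of Chek1 and Rad51ap1, were then called lower); without 1 culture the count was 0 to 3. In Suv39h1ER ADR against native cultures 2 passed with array weights. In the difference of responses 1 passed with arrays centred on their median, 1 with a mean level of at least 5, and 0 to 3 without 1 lymphoma. The slope on the fibroblast change passed for 6 genes with the B cell centring, which subtracts a list that itself moved in WT lymphomas. For the other changes of count the cause was not tested.

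Of the 9 genes' values, 9 changed sign, none of them called in the reported fit. In the Suv39h1- response minus WT response, Brca2 was -0.13 and Rad54b -0.05 with the B cell centring, and Rad54b was -0.30 without Suv39h1- lymphoma 4936 (up to 0.71 without 5783). In Suv39h1- ADR against native lymphomas, Fanca was -0.03 with alike lymphomas counted once and between -0.06 (without 9250) and 0.15 (without 5783) without 1 lymphoma. In Suv39h1ER ADR 4OHT against ADR cultures, Fanca was 0.01 with the B cell centring, and without 1 culture it was between -0.28 (without SuvER-4146) and 0.19 (without SuvER-5043), and 0.03 without SuvER-4936, while Brca2 was between -0.73 (without SuvER-4146) and 0.23 (without SuvER-5043). In WT lymphomas Ercc4, called higher in the reported fit, was -0.30 (not called) with the probe set of largest variance.

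Counts over all genes also moved with the setting. In WT lymphomas 5489 genes were called, 10736 with the B cell centring, 2102 with the fibroblast change as a covariate and 9757 of 34958 probe sets. In Suv39h1- lymphomas 2 were called, 11 with no replicate block and 84 with the culture as a random block. In the difference of responses 62 were called, 13 with no replicate block, 142 with the random block and 0 with array weights. In ADR Suv39h1- against ADR WT lymphomas 2293 were called, 939 with alike lymphomas counted once and 0 with the B cell centring. In Suv39h1ER ADR 4OHT against native cultures 537 were called, 267 with no replicate block and 1059 with array weights, and with array weights the 23 and 26 of the other Suv39h1ER comparisons became 1065 and 627. The number of arrays, 3 per Suv39h1ER group, limits the precision, and arrays give no counts to set a depth.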
